A study of Tachysurus fulvidraco x Tachysurus vachelli with 6 samples.

Results

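Ribosome biogenesis factors were described in the liver of a hybrid yellow catfish, the offspring of female Tachysurus fulvidraco and male Pseudobagrus vachellii, on a diet with Siberian ginseng, A. senticosus. The genes were taken from the KEGG annotation of the deposited table: every row annotated to the pathway of eukaryotic ribosome biogenesis was kept unless it was also annotated to the spliceosome or its transcript was a non-coding model, which left 132 of 28288 genes. T_liver fish received a diet with 4 g/kg A. senticosus and C_liver fish the same basal diet with 0 g/kg, both for 8 weeks, and livers were taken after starvation. All fish were of the same hybrid cross, and 3 libraries were sequenced per group. The study kept 3 tanks per diet and took fish for sequencing from each tank. RNA was pooled within a group ahead of library preparation according to the study's methods, and how many fish a library represents is not given. For this reason n is the number of libraries. P values measure only the spread between these libraries, which may come from fish, tanks or technical steps. The comparison asks whether the ginseng diet came with altered transcript levels of this machinery.

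Ribosomes are made in the nucleolus, where RNA polymerase I transcribes a long precursor that holds the 18S, 5.8S and 28S rRNAs. While it is being made, the precursor is bound by the small subunit processome, built from the UTP-A, UTP-B and MPP10 complexes and the U3 snoRNP, and is methylated, pseudouridylated and cut. GTPases, AAA ATPases, kinases and nucleases then remodel the pre-40S and pre-60S particles, which leave the nucleus with exportin-1 and Ran and are licensed for translation in the cytoplasm. A liver that makes much secreted protein depends on a large stock of ribosomes, and in other vertebrates the transcripts of these factors are known to move together with growth signals.

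By gene name and description, 92 of the 132 genes were ribosome biogenesis factors and 40 carried another name. The 40 were placed in the pathway through a shared KEGG orthology entry. The entry of PWP2, a WD40 protein of the processome, was given to 10 genes, of which 4 were factors by name, and its other holders included the solute carriers slc35b1, slc35b2 and slc35b3. The entry of EFL1, the GTPase that releases eIF6 from the 60S subunit, was given to 7 genes, of which 1 (efl1) was a factor by name. The entry of DKC1, the pseudouridine synthase of box H/ACA snoRNPs, was given to 3 genes, of which 1 was a factor. The 92 factors and the 40 other genes are therefore given apart below.

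A mean of at least 1 FPKM (fragments per kilobase of transcript and per unit of mapped library size) over the 6 libraries was reached by 111 of the 132 genes, namely 82 factors and 29 genes with another name. The other 21, of which 10 were factors, were not tested. Their highest mean was 0.972 FPKM, the lowest mean among the tested genes was 1.06 FPKM, and 6 of the 21 had no count in any library. Several genes of the pathway shared a description. Of 7 genes described as exoribonuclease 1, 4 lay on 1 scaffold, 4 were tested and 1 had no count. All 4 genes described as nuclear valosin-containing protein-like lay on 1 scaffold, and 1 of them was tested. Their sequences were not compared, and the treatment of reads with more than 1 match is not given in the sources read, so the levels of such genes are uncertain where they are alike. The same holds for 18 tested genes that overlap another gene, 15 of them on the opposite strand only, since strand was not stated to be used. In 8 of the 18 the overlapping gene had more counts than the pathway gene, as for wdr3, mphosph10, nob1 and fcf1.

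Total counts per library lay between 44153673 and 51459627, and 16719 to 17818 genes had a count. Hepatocyte transcripts were abundant in every library: 23 genes encoding apolipoproteins, fibrinogen chains and other plasma proteins summed to 101123 to 155484 CPM (counts scaled to a common library total) in T_liver and 113644 to 160728 CPM in C_liver. Markers of other cells differed between libraries. All 17 tested pancreatic enzyme genes had higher values in T_liver, 14 of them DE by the criteria given with the comparison, with sums of 995, 329 and 772 CPM in T_liver 1 to 3, against 82.6, 56.8 and 227 CPM in C_liver 1 to 3. Globin and other red cell transcripts summed to 191 to 1176 CPM in T_liver and 356 to 1927 CPM in C_liver. Of the 23 hepatocyte genes 16 were higher and 7 lower in T_liver, with 1 DE gene, which was higher. Their median log2 fold change was 0.43, and it was -0.0020 without T_liver 1. Of 3 leukocyte, 5 endothelial and 5 stellate and fibroblast genes tested, 1 leukocyte gene was DE (lower in T_liver) and 1 endothelial gene (higher). The part of these cell types in the values below was not tested. In bulk liver, fewer cells of a type and less RNA per cell cannot be told apart.

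The 132 genes together took 0.255%, 0.297% and 0.344% of all counts in T_liver 1, 2 and 3, against 0.383%, 0.273% and 0.177% in C_liver 1, 2 and 3. The highest and the lowest share were thus both found in C_liver, and the 3 T_liver libraries lay between them. The 92 factors summed to 1027, 1326 and 1450 FPKM in T_liver and to 1721, 1169 and 767 FPKM in C_liver.

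Levels within the pathway were compared per length, as mean FPKM over the 6 libraries. The median tested factor had 6.27 FPKM, and 57 of the 82 tested factors had fewer than 10 FPKM. A pair of GTPases stood far above the others. GTPBP4, the nucleolar GTPase (also called NOG1) that acts on the pre-60S particle, averaged 282 ± 72.3 FPKM in T_liver and 207 ± 122 FPKM in C_liver (SD, n = 3 each). RAN, the GTPase that drives nuclear transport, averaged 234 ± 38.5 FPKM in T_liver and 217 ± 63.4 FPKM in C_liver. Together they made up 37.8% of the factors' summed mean FPKM. Next came nop10 of the H/ACA snoRNP with 73.1 ± 32.5 FPKM in T_liver and 56.1 ± 21.4 FPKM in C_liver, rcl1 of the processome with 58.8 ± 15.6 and 54.7 ± 35.2 FPKM, and nhp2 with 36.0 ± 9.55 and 33.0 ± 12.9 FPKM. The intervals of 1 SD of the groups overlapped for each of these 5 genes, and neighbours in this order were as close as their spread, apart from the gap between ran and nop10.

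**Figure D1:**
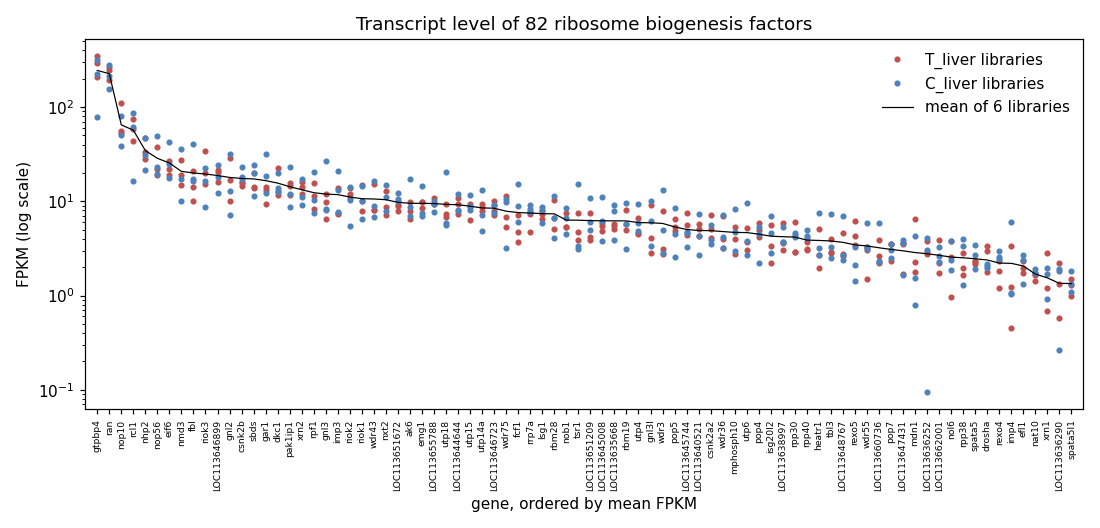
Level of each of the 82 tested factors in FPKM (log axis), ordered by mean level. Points stand for the T_liver libraries (red) and C_liver libraries (blue) and the line for the mean of the 6 libraries. The GTPase genes gtpbp4 and ran lie far above the remaining factors, and the median factor had 6.27 FPKM.

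A gene was called DE when its absolute log2 fold change reached 1 with an unadjusted P below 0.05 in edgeR's quasi-likelihood test on the counts. By this rule 3.11% of the 11521 tested genes were DE (1.49% higher and 1.61% lower in T_liver), and 3 of the 111 tested genes of the pathway were, or 2.7%. These were rexo5 and atad2b, which were higher in T_liver, and cunh1orf127, which was lower. Of the 3, only rexo5 was a ribosome biogenesis factor by name, so that 1 of 82 factors (1.22%) was DE. An unadjusted P under 0.05 alone was reached by 5 of the 111 genes (4.5%), against 6.64% of all tested genes, with gnl1 and tmem223 as the additional genes. After Benjamini-Hochberg adjustment over all tested genes no gene of the pathway passed 0.05 in edgeR's quasi-likelihood test, in DESeq2 or in edgeR's exact test, and the smallest adjusted P of a pathway gene in the quasi-likelihood test was 0.676. Over all tested genes that test also gave 0 genes at an adjusted P under 0.05, where DESeq2 gave 38 and edgeR's exact test 14.

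The median log2 fold change (T_liver over C_liver) was -0.05 over the 111 genes and -0.0047 over all tested genes. For the 82 factors it was -0.09, with 30 factors above 0 and 52 below (63.4%), against 50.4% of all tested genes below 0. For the 29 genes with another name it was 0.01, with 16 above and 13 below 0. Most values were small: 69 of the 82 factors had an absolute log2 fold change under 0.5. So had 8268 of 11521 tested genes and 21 of the 29 genes with another name. The median SE of a factor's log2 fold change was 0.35. When a library other than C_liver 1 was left out, the factors' median lay between -0.21 (without C_liver 2) and -0.02 (without T_liver 1). Its sign turned without C_liver 1, to 0.11, with 57 factors above 0 and 25 below. The tilt was also absent at a mean FPKM of at least 5. There 50 factors were tested, with a median of -0.0045 and with 25 above and 25 below 0.

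**Figure D2:**
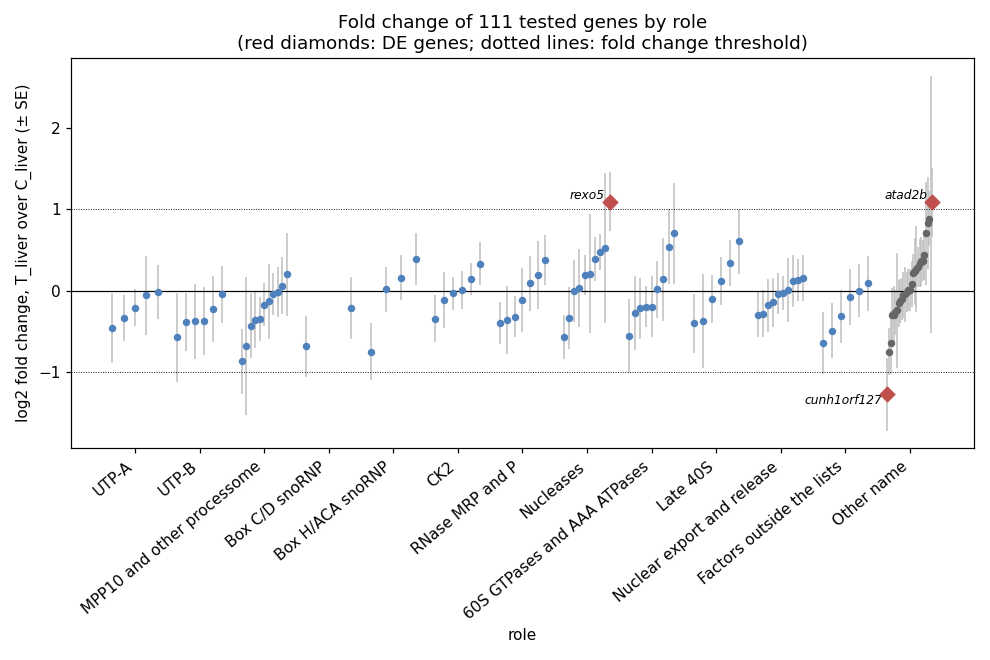
Log2 fold change (T_liver over C_liver) of each of the 111 tested genes of the pathway with its SE, grouped by role (factors in blue, genes with another name in grey). Dotted lines mark the fold change threshold, and red diamonds are the DE genes rexo5, atad2b and cunh1orf127. Of the factors, 69 lie within 0.5 of 0.

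In 9 of the 111 genes (8.11%) all 3 libraries of a group lay on the same side of all 3 libraries of the other, against 13.1% of all tested genes. Higher in T_liver by this measure were 5 genes (4.5%), against 5.96% of all tested genes. These were rexo5, atad2b, gnl1, the exonuclease gene LOC113645744 and the kinase gene LOC113655788. Lower in T_liver were 4 genes (3.6%), against 7.1% of all tested genes. These were cunh1orf127, tmem223, rexo4 and rpp40. Of the 9 genes, 5 were factors by name.

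The nucleases held the only DE factor. REXO5, an exonuclease of the DEDD family, trims the ends of snoRNAs and of the large rRNA in Drosophila. Its gene (scaffold NW_020848017.1, 214151 to 229799, plus strand, in the genome build of the deposited table, which is not named) had 8.31, 15.7 and 8.71 CPM in T_liver, against 6.82, 4.55 and 3.89 CPM in C_liver. All T_liver libraries lay above all C_liver libraries, with T_liver 2 the highest. The means were 10.9 ± 4.14 CPM in T_liver and 5.09 ± 1.53 CPM in C_liver (SD, n = 3 each), and the log2 fold change was 1.10 (SE 0.36, adjusted P = 0.676, edgeR's quasi-likelihood test). The exact 2-sided permutation test gave p = 0.1, the smallest that 3 libraries against 3 allow. Without T_liver 2 the log2 fold change was 0.75, which ended the DE call, as did leaving out C_liver 2 (1.02) or C_liver 3 (0.94).

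Other exonucleases of the same family differed in sign. LOC113645744, described as RNA exonuclease 1 homolog, had 35.0, 28.3 and 39.7 CPM in T_liver, against 25.6, 25.7 and 22.9 CPM in C_liver (log2 fold change 0.47, SE 0.22). For rexo4, 5.92, 4.01 and 6.37 CPM were found in T_liver, against 8.15, 7.36 and 8.73 CPM in C_liver (log2 fold change -0.57, SE 0.27). Neither passed the DE criteria, although the groups did not overlap in either gene. XRN2, which trims rRNA precursors from the 5′ end in the nucleus, had 49.9, 43.5 and 47.3 CPM in T_liver, against 52.4, 34.9 and 35.8 CPM in C_liver, a log2 fold change of 0.19 (SE 0.24). Drosha, better known as the nuclease that crops primary microRNAs, had a log2 fold change of 0.39 (SE 0.27). Among the 10 tested nucleases 7 had a value above 0 and 3 below, with a median of 0.20. Without C_liver 3 there were 4 above and 6 below, with a median of -0.083. The group includes genes described as exoribonuclease 1, of which 4 were tested and whose levels are uncertain where they are alike.

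The RNase MRP and P subunits, which cut rRNA and tRNA precursors, included rpp40, with 6.40, 5.59 and 4.44 CPM in T_liver, against 7.34, 6.53 and 7.84 CPM in C_liver. The groups did not overlap, and the log2 fold change was -0.40 (SE 0.26). The other 6 tested subunits overlapped between the groups, and the 7 ranged from -0.40 to 0.37.

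Within the processome, every tested UTP-A and UTP-B gene had a log2 fold change below 0, but none passed the test. UTP-A is the first complex to bind the nascent precursor. Its largest subunit gene, heatr1, had 14.2, 20.0 and 30.6 CPM in T_liver, against 46.5, 17.3 and 25.5 CPM in C_liver, a log2 fold change of -0.46 (SE 0.43). The high mean of C_liver came from C_liver 1, and the other libraries of both groups were intermixed. The 5 tested UTP-A genes ranged from -0.46 to -0.02, with a median of -0.21. Without C_liver 1 the median was 0.014 with 3 of the 5 above 0. With another library left out it was -0.45 to -0.08.

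UTP-B, a complex mostly of WD40 proteins that links the precursor to the U3 snoRNP, gave the same picture in all 6 of its tested genes. For wdr3, 10.5, 9.62 and 22.3 CPM were found in T_liver, against 38.2, 14.7 and 10.5 CPM in C_liver, a log2 fold change of -0.58 (SE 0.55). For the PWP2 gene LOC113648767, 8.96, 9.60 and 13.0 CPM were found in T_liver, against 19.9, 7.05 and 9.97 CPM in C_liver, a log2 fold change of -0.22 (SE 0.40). In both genes C_liver 1 was the highest library, and the median of the 6 genes was -0.38. Without C_liver 1, all 6 had a value above 0 and the median was 0.23. With another library left out the median was -0.60 to -0.28.

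Among the MPP10 complex and the other processome factors, fcf1, the endonuclease-like protein of the early particle, had the largest negative value of any factor. It had 2.94, 5.72 and 3.11 CPM in T_liver, against 10.2, 6.19 and 5.17 CPM in C_liver, a log2 fold change of -0.87 (SE 0.40, exact 2-sided permutation p = 0.2). T_liver 2 lay above C_liver 3, so that the groups overlapped. It met the DE criteria without T_liver 2 (-1.24) and without C_liver 3 (-1.06), and its value was -0.53 without C_liver 1. The gene arel1, on the opposite strand at the same place, had more counts than fcf1, and reads of the pair cannot be told apart without strand. The scaffold protein gene mphosph10 had 9.20, 13.6 and 15.2 CPM in T_liver, against 23.8, 14.0 and 10.9 CPM in C_liver. The cyclase-like protein gene rcl1, the most abundant transcript of the group per length, had 73.3, 129 and 81.6 CPM in T_liver, against 89.1, 128 and 30.4 CPM in C_liver, which overlapped throughout. Of the 11 tested genes 9 had a value below 0, and the median was -0.18. It was 0.07 without C_liver 1 and -0.36 to -0.16 with another library left out. The shallowest factor in this group was imp4, with 29, 87 and 226 counts in T_liver, against 417, 78 and 69 counts in C_liver, with most of the C_liver counts in C_liver 1.

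The snoRNPs guide chemical marks on rRNA. Fibrillarin (fbl), the methyltransferase of box C/D snoRNPs, had 15.3, 22.6 and 27.2 CPM in T_liver, against 53.1, 22.6 and 29.2 CPM in C_liver. The means were 21.7 ± 5.98 and 35.0 ± 16.0 CPM (SD, n = 3 each), and the log2 fold change was -0.69 (SE 0.38, exact 2-sided permutation p = 0.2). Its partner nop56, a core scaffold protein, had 46.2, 55.6 and 78.4 CPM in T_liver, against 104, 42.7 and 62.6 CPM in C_liver, a log2 fold change of -0.22 (SE 0.38). Both were highest in C_liver 1. Without it, the median of the pair was -0.03, with fbl at -0.26 and nop56 at 0.19.

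The 4 core proteins of the box H/ACA snoRNP, which pseudouridylates rRNA, did not share a sign. For gar1, 12.4, 17.7 and 15.6 CPM were found in T_liver, against 35.6, 14.5 and 27.0 CPM in C_liver, a log2 fold change of -0.75 (SE 0.36), which met the DE criteria without C_liver 2 (-1.04) and was -0.44 without C_liver 1. The catalytic subunit gene dkc1 had 29.7, 27.5 and 43.5 CPM in T_liver, against 39.1, 25.8 and 34.9 CPM in C_liver, a log2 fold change of 0.01 (SE 0.28). The values of nhp2 and nop10 were 0.16 (SE 0.28) and 0.39 (SE 0.32). No subunit passed the test, and the groups overlapped in each.

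The group of GTPases and AAA ATPases of the 60S subunit ranged from -0.56 to 0.71 on the log2 scale. The gene rbm28, which is neither by name, was also assigned to this group. Nucleostemin (gnl3), a nucleolar GTPase of proliferating cells, had 14.0, 21.6 and 21.5 CPM in T_liver, against 49.3, 15.9 and 18.9 CPM in C_liver, a log2 fold change of -0.56 (SE 0.46). Midasin (mdn1), the giant AAA ATPase that strips factors off the pre-60S particle, had 43.2, 34.6 and 104 CPM in T_liver, against 69.2, 25.6 and 16.6 CPM in C_liver, a log2 fold change of 0.71 (SE 0.62). T_liver 3 and C_liver 1 were the high libraries of mdn1, and its log2 fold change was 1.52 without C_liver 1, where it met the DE criteria, and 0.07 without T_liver 3. The abundant gtpbp4 had 495, 864 and 584 CPM in T_liver, against 653, 477 and 205 CPM in C_liver, a log2 fold change of 0.54 (SE 0.46), which was 0.20 without C_liver 3, 0.29 without T_liver 2 and 0.93 without C_liver 1. Each of these genes overlapped between the groups.

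The late 40S factors included the RIO kinases, atypical kinases of the maturing small subunit. For riok3, 79.9, 37.1 and 39.4 CPM were found in T_liver, against 32.9, 46.9 and 22.7 CPM in C_liver, a log2 fold change of 0.61 (SE 0.40), or 0.18 without T_liver 1. For riok2, 25.8, 24.1 and 24.9 CPM were found in T_liver, against 25.8, 20.0 and 13.1 CPM in C_liver, a log2 fold change of 0.34 (SE 0.28). The T_liver libraries of riok2 lay close together (SD 0.874 CPM), while those of C_liver were spread (SD 6.37 CPM). NOB1, the nuclease that makes the 3′ end of 18S rRNA, had a log2 fold change of -0.11 (SE 0.29). The 6 tested late 40S genes ranged from -0.40 to 0.61, with 3 above and 3 below 0 and a median of 0.0062. Without C_liver 1 the median was 0.47, with 5 above 0 and 1 below. With another library left out it was -0.14 to 0.10.

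The export and release factors had a median log2 fold change of -0.034, with 4 genes above and 6 below 0, and without C_liver 3 it was -0.23, with 1 above and 9 below. Exportin-1 (LOC113640521), the export receptor of both subunits, had 25.4, 30.7 and 28.5 CPM in T_liver, against 21.7, 38.4 and 17.7 CPM in C_liver, a log2 fold change of 0.12 (SE 0.32). For ran, 282, 404 and 303 CPM were found in T_liver, against 354, 283 and 251 CPM in C_liver, a log2 fold change of 0.15 (SE 0.28). The anti-association factor gene eif6 had 30.1, 26.8 and 30.8 CPM in T_liver, against 50.3, 30.1 and 26.4 CPM in C_liver, a log2 fold change of -0.29 (SE 0.29). All 10 genes of the group ranged from -0.30 to 0.15, with sbds, the partner of EFL1 in eIF6 release, at -0.15 (SE 0.30) and the export adaptor gene nmd3 at 0.01 (SE 0.40). The casein kinase 2 subunits, which the pathway also lists, ranged from -0.35 for csnk2b to 0.33. None of these genes passed the test.

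**Figure D3:**
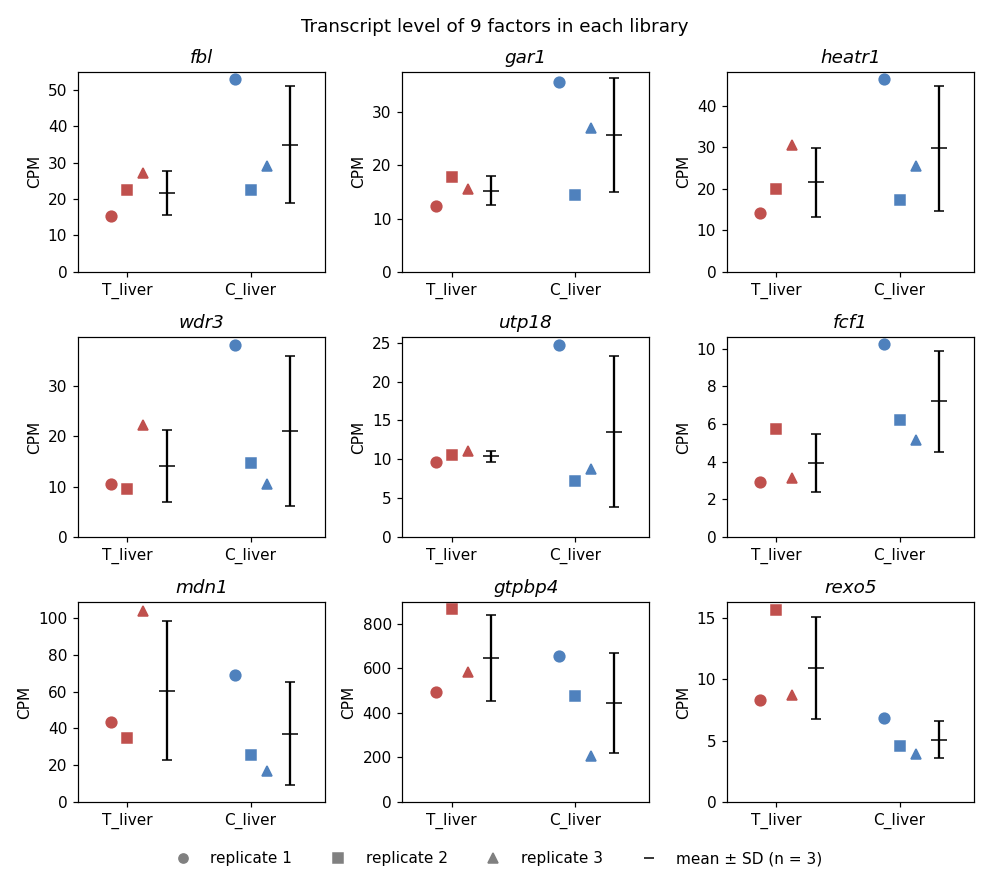
Level in CPM of 9 factors in each library, T_liver in red and C_liver in blue, with a marker shape for each replicate number and mean ± SD (n = 3) beside the points. C_liver 1 is the highest library of fbl, gar1, heatr1, wdr3, utp18 and fcf1, while in rexo5 all T_liver libraries lie above all C_liver libraries.

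Among the genes with another name, the DE genes were atad2b and cunh1orf127. ATAD2B is a bromodomain AAA ATPase of chromatin and shares the KEGG entry of SPATA5, the ATPase that recycles pre-60S factors. Its gene (scaffold NW_020847794.1, 18567057 to 18625032) had 13.5, 17.1 and 37.2 CPM in T_liver, against 13.4, 10.3 and 8.09 CPM in C_liver. The lowest T_liver library and the highest C_liver library were nearly equal, and T_liver 3 was far above the rest. The log2 fold change was 1.09 (SE 0.42, adjusted P = 0.676, edgeR's quasi-likelihood test), and 0.52 without T_liver 3, which ended the call. The call was also lost without C_liver 2 (1.07) and without C_liver 3 (0.94), with scaling by library totals (1.11) and by limma on log2(FPKM + 1) (0.64) or log2(FPKM + 0.1) (0.91), and it was kept under 7 of the 14 alternatives that gave a value.

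The uncharacterised gene cunh1orf127 (scaffold NW_020848014.1, 1856378 to 1866712), placed in the pathway through the entry of EFL1, had 2.36, 7.81 and 5.98 CPM in T_liver, against 16.2, 9.95 and 13.1 CPM in C_liver. The groups did not overlap, with means of 5.38 ± 2.77 CPM in T_liver and 13.1 ± 3.10 CPM in C_liver (SD, n = 3 each) and a log2 fold change of -1.28 (SE 0.45, adjusted P = 0.676, edgeR's quasi-likelihood test). The call was lost without T_liver 1 (-0.91), C_liver 1 (-1.10) or C_liver 3 (-1.27). The GTPase gene gnl1 had 32.0, 25.9 and 43.5 CPM in T_liver, against 19.7, 23.6 and 11.5 CPM in C_liver, a log2 fold change of 0.89 (SE 0.34). For tmem223, which encodes a transmembrane protein, 4.41, 4.32 and 3.43 CPM were found in T_liver, against 7.02, 5.21 and 8.24 CPM in C_liver, a log2 fold change of -0.75 (SE 0.30). In both genes the groups did not overlap, and neither reached the fold change of a DE gene, except gnl1 without T_liver 2 (1.06) or without C_liver 2 (1.11).

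The factors varied more between the C_liver libraries than between the T_liver libraries. Their median coefficient of variation was 23.0% in T_liver and 35.5% in C_liver. The coefficient was lower in T_liver for 55 of the 82 factors. This also held for 5923 of 11521 tested genes and 16 of the 29 genes with another name. Over all tested genes the medians were 24.2% in T_liver and 25.3% in C_liver, and over the 29 genes with another name they were 22.6% and 23.4%. Whether the factors' spread differs from that of other genes was not tested.

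C_liver 1 held the highest value of the 6 libraries in 46 of the 82 factors (56.1%), against 1380 of 11521 tested genes (12.0%) and 5 of the 29 genes with another name (17.2%). The median ratio of C_liver 1 to the mean of C_liver 2 and C_liver 3 was 1.55 for the factors. It was 0.969 for the genes with another name and 0.978 for all tested genes. A ratio of 1.5 was reached by 44 of the 82 factors, which was not counted over all tested genes. C_liver 1 had 48456874 counts and 17687 genes with a count, both within the range of the other libraries. Its TMM scaling value was 1.11, beside 1.14 in T_liver 3, the highest, and 0.855 in C_liver 3, the lowest. In the study's overview of reads, C_liver 1 had the fewest raw reads and the highest share of valid reads of the 6 libraries. The total of its counts also exceeded its valid reads. The part of scaling, read filtering and counting in the pattern was not tested. In 23 of the 46 factors the second highest library was T_liver 3, and C_liver 3 was the lowest library of 32 of the 82 factors (39.0%), against 3089 of 11521 tested genes and 11 of the 29 genes with another name (37.9%).

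The share of genes highest in C_liver 1 differed between the roles. It was 6 of 6 in UTP-B, 4 of 5 in UTP-A, 7 of 11 in the MPP10 and other processome group, and both box C/D genes. It was also 6 of 9 in the group of 60S GTPases and AAA ATPases and 4 of 6 late 40S factors. All 6 factors that were assigned to no role group, such as wdr55, were highest in C_liver 1. It was 2 of 4 in box H/ACA, 4 of 10 in nuclear export and release, 2 of 10 in the nucleases, 2 of 7 in RNase MRP and P, and 1 of 6 in casein kinase 2. These counts are a description, and the difference between roles was not tested. The SNU13-like gene LOC113662525, a box C/D protein, was left out because it is also annotated to the spliceosome. It had 3214 counts in C_liver 1 and 902 to 1497 counts in the other 5 libraries. Of the tested non-coding models that were left out, rexo2 also had most counts in C_liver 1 (276). LOC113637673 and LOC113660744 had most in T_liver 3 (1835 and 3292 counts, against 934 and 852 in C_liver 1). The first is described as transmembrane protein 120A, and so has another name, and the second as nuclear valosin-containing protein-like. Counts of LOC113660744 were 820, 684 and 3292 in T_liver, against 852, 6 and 0 in C_liver. Its log2 fold change was 2.58, but it was not DE (unadjusted P = 0.19, edgeR's quasi-likelihood test), and the groups overlapped.

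**Figure D4:**
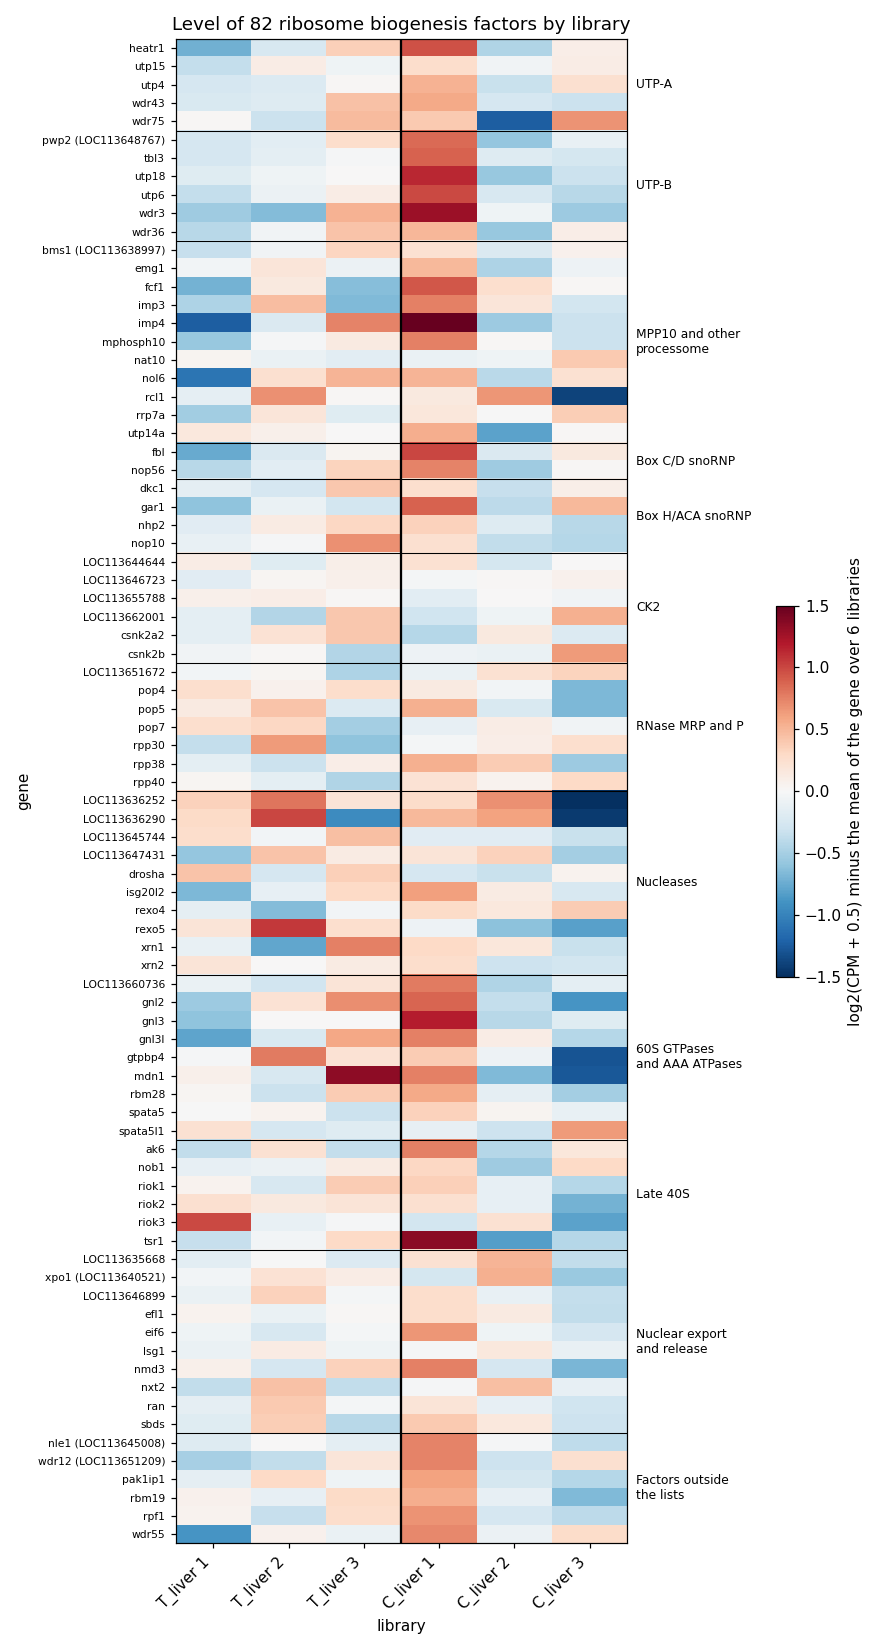
Level of each of the 82 tested factors in each library as log2(CPM + 0.5) minus the mean of the gene over the 6 libraries, with rows grouped by role. The colour scale is clipped at 1.5 in either direction. C_liver 1 is the highest library of 46 factors, among them all 6 of UTP-B.

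Related lists outside the pathway were read in the same way. Of 57 assembly factors not annotated to the pathway, such as ncl, which encodes nucleolin, 44 (77.2%) were highest in C_liver 1. Their summed level was nonetheless highest in T_liver 2. It was 2612, 6235 and 3114 CPM in T_liver, against 4918, 3722 and 2086 CPM in C_liver. Their median log2 fold change was -0.21, with 15 above and 42 below 0. It was 0.11 without C_liver 1 and -0.39 to -0.09 with another library left out. The list for RNA polymerase I and rDNA transcription also named polr2 subunits that RNA polymerases share, myc genes and max. Of its 19 tested genes, 9 (47.4%) were highest in C_liver 1, against 12.0% of all tested genes. Their median was -0.13, or 0.07 without that library. Of 12 RNA exosome genes, 3 were highest in C_liver 1, and the median was -0.04, or 0.14 with 7 above 0 without that library. None of these lists held a DE gene or a gene with an unadjusted P under 0.05 in edgeR's quasi-likelihood test, and DESeq2 and edgeR's exact test gave no DE gene in them either.

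The cytosolic ribosomal protein genes, whose products are assembled by these factors, each had their highest value in another library than C_liver 1. Of 68 tested genes, 0 were highest in C_liver 1, 62 in T_liver 2 and 6 in C_liver 3. Their summed level was 126906, 203737 and 122823 CPM in T_liver, against 130616, 122972 and 170507 CPM in C_liver. The median log2 fold change was 0.10, with 58 genes above 0, and it was -0.18 with 59 below 0 when T_liver 2 was left out. With another library left out it stayed above 0, from 0.011 without C_liver 2 to 0.27 without C_liver 3. None was DE in edgeR's quasi-likelihood test, none had an unadjusted P under 0.05, and DESeq2 and edgeR's exact test gave none. Of the proliferation markers only 4 were tested, none of which was highest in C_liver 1. Their sum in C_liver 1 was 61.2 CPM, against 48.8 to 62.6 CPM in the other libraries.

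**Figure D5:**
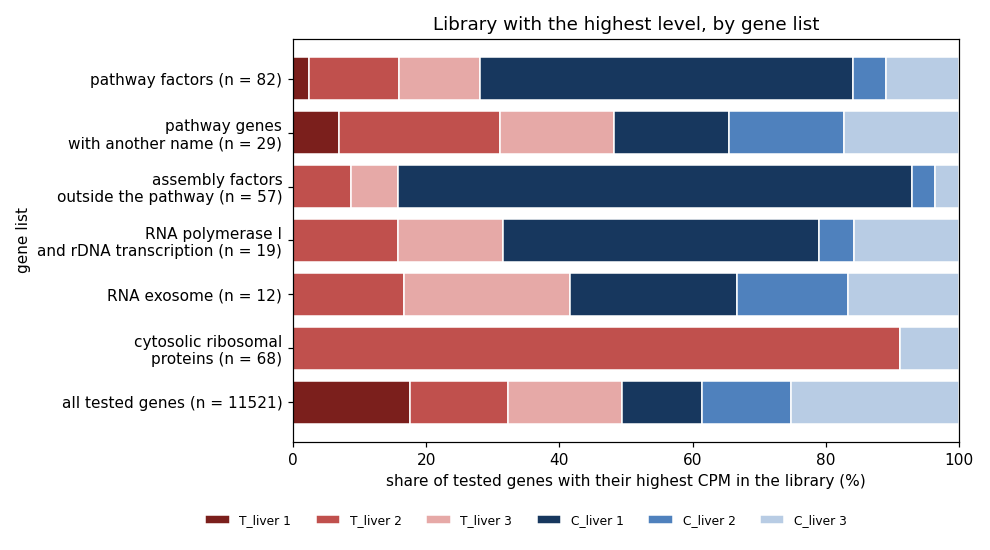
Share of tested genes (percent) with their highest CPM in each of the 6 libraries, as stacked bars for the factors, the genes with another name, 4 related lists and all tested genes. The factors were highest in C_liver 1 in 56.1% and the assembly factors outside the pathway in 77.2% of cases, while 62 of 68 ribosomal protein genes were highest in T_liver 2.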

How the data were processed

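The authors filtered the reads of the 6 poly(A) libraries and used HISAT to align them to a T. fulvidraco genome. The submitters' processing notes list HISAT2 2.0, StringTie 1.3.0, Bowtie 0.12.2 and the build mm8, a mouse build, with no role. The build, strand setting and counting tool behind this table are not given in the sources read here. The study and the labels name different Illumina instruments. The deposited counts are whole numbers. In C_liver 1, C_liver 3 and T_liver 3 their total exceeded the number of valid reads that the study lists for the library. They are therefore not 1 count per valid read, and how a read was counted is not given. FPKM values were computed by the authors, who set genes with no count to 0.0001.

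Genes averaging 1 FPKM or more were tested (11521 of the 20547 with a count) with edgeR 4.0.16 in R 4.3.3: TMM scaling, a trended dispersion and the quasi-likelihood test with no covariate, and Benjamini-Hochberg adjustment over all tested genes. CPM values use the TMM-scaled totals. SEs follow from the F statistic and the log2 fold change. The script was tested on simulated counts. DESeq2 1.42.0, edgeR's exact test, limma 3.58.1 on log2(FPKM + 1) and log2(FPKM + 0.1), other scalings and filters, a replicate block and fits without each library were alternatives.

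The pathway genes, role groups and lists were chosen with earlier results of these data known. Named genes were all DE genes and those with an unadjusted P under 0.05, the 5 highest and 3 lowest tested genes by mean FPKM, the largest change in each role, and a fixed set of core factors. The genes rexo2, rexo4, imp4, utp18, LOC113637673, LOC113645744, LOC113655788, LOC113660744 and LOC113662525 were named after their values were seen. Libraries held 44153673 counts or more. The common biological coefficient of variation over all tested genes was 0.426.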

Additional observations from a re-analysis of the deposited data

How the results depend on the processing

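The number of DE genes over all tested genes was 358, and it was 190 by limma on log2(FPKM + 1), 774 without a filter on low values, 175 at a mean FPKM of at least 5, 765 by unadjusted P under 0.05 with no fold change threshold, and 248 to 643 when each library was left out in turn. The number among the pathway genes was 3, and it was 0, 5, 0 and 5 under the first 4 of these alternatives and 1 to 5 with a library left out. At a mean FPKM of at least 5, fewer pathway genes were tested (62), and none of the 3 DE genes was among them. The pathway median of -0.05 ranged from -0.14 to 0.10 with a library left out. It was 0.0054 at a mean FPKM of at least 5, with 33 genes above 0 and 29 below. Keeping genes that are also annotated to the spliceosome, non-coding models or both left 3 DE genes each time.

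Outside the fits without a library, the 39 named genes gave 334 comparisons, of which 322 kept sign and side of the DE criteria, 6 lost the call (4 of them of atad2b, among them 0.96 with the replicate block, and 1 each of rexo5 and cunh1orf127) and 6 turned sign. Those that turned sign were LOC113653855 (0.19 by limma on log2(FPKM + 0.1) and 0.32 with the replicate block), dkc1 (-0.0066 by limma on log2(FPKM + 1) and -0.0087 on log2(FPKM + 0.1)) and nmd3 (-0.034 by library totals and -0.0014 without a filter). The cause was not tested. Without C_liver 1 LOC113653855 met the DE criteria (1.12). With each library left out in turn, 20 of the 39 kept their sign, though not their size: riok3 ranged from 0.18 to 0.91, gtpbp4 from 0.20 to 0.93, mdn1 from 0.07 to 1.52 and nop10 from 0.09 to 0.64. The other 19 ranged from -0.38 to 0.61 for LOC113636290, -0.24 to 0.12 for LOC113638997, -0.083 to 0.52 for LOC113640521, -0.50 to 0.31 for LOC113648767, -0.63 to 1.12 for LOC113653855, -0.22 to 0.15 for dkc1, -0.46 to 0.049 for eif6, -0.84 to 0.13 for gnl3, -0.80 to 0.014 for heatr1, -0.57 to 0.021 for mphosph10, -0.27 to 0.017 for nat10, -0.26 to 0.54 for nmd3, -0.34 to 0.034 for nob1, -0.48 to 0.19 for nop56, -0.0060 to 0.30 for ran, -0.19 to 0.66 for rcl1, -0.40 to 0.022 for sbds, -0.39 to 0.18 for spata5l1 and -1.07 to 0.17 for wdr3.

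Replicate numbers are shared by the groups in the labels, but libraries with the same number did not deviate together. Their correlations over genes were -0.11, 0.04 and -0.14 for numbers 1, 2 and 3. Pairs with different numbers ranged from -0.13 to 0.19. Each deviation was taken from a mean of 3 libraries, so these values are not independent. With the replicate block 329 genes were DE, 2 pathway genes (rexo5 and cunh1orf127) were DE, and the pathway median was -0.02.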
